A study of Homo sapiens with 8 samples.

Results

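Polyamine synthesis and catabolism genes were followed in RNA sequencing of 769-P and CAKI-1 cells cultured with or without the branched-chain amino acids (BCAAs) isoleucine, leucine and valine. The 10 genes, ODC1, AMD1, SRM, SMS, OAZ1, OAZ2, AZIN1, SAT1, SMOX and PAOX, were picked as a named set and matched by Ensembl identifier, and all 10 were listed for both cell lines, out of 25431 genes listed for 769-P, 24190 for CAKI-1 and 27776 in either. Both are established human clear cell renal cell carcinoma lines, obtained from ATCC. The study's BCAA treatment had leucine and isoleucine each at 0.38 mM and valine at 0.17 mM. Its time was taken as 16 h, which the paper states for other BCAA assays and not for the RNA sequencing. The 4 groups were 769-P with BCAA, 769-P without BCAA, CAKI-1 with BCAA and CAKI-1 without BCAA, each with 2 libraries. The lines were kept in different media, 769-P in RPMI 1640 and CAKI-1 in MEM, both with serum and antibiotics, and the study's BCAA-depleted medium was made from amino acid-free RPMI with dialyzed serum. No group carried a gene deletion or a drug, each cell line is 1 model, and nothing says whether the 2 libraries of a group came from separate cultures, so p-values measure only the spread between these libraries.

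Polyamines are small positively charged molecules that bind RNA and DNA and that growing cells need. ODC1 turns ornithine into putrescine, AMD1 makes the decarboxylated S-adenosylmethionine that donates aminopropyl groups, and SRM and SMS add those groups to give spermidine and spermine. Antizymes, encoded by OAZ1 and OAZ2, bind ODC1 protein and send it to the proteasome, and the antizyme inhibitor AZIN1 binds antizyme in place of ODC1. In the reverse direction, SAT1 acetylates spermidine and spermine for export or for oxidation by PAOX, and SMOX oxidizes spermine directly. Much of this pathway is known to be controlled at translation and protein stability, including a polyamine-driven frameshift in antizyme mRNA, which RNA levels do not record.

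The values, here called normalized values, were read counts scaled by each library's size factor, and between 30979773 and 64256834 reads per library lay on listed genes. In 769-P the libraries with BCAA were deeper (64256834 and 55829324 reads) than those without (39062721 and 40130258 reads). The renal carcinoma markers PAX8, VIM, KRT8, KRT18 and EPAS1 were present in all 8 libraries, with 758 reads or more for each, PAX2 was listed for 769-P alone, and CA9 was not analysed here. NDUFA4L2, another gene of this marker list, had 1 to 3 reads per library in 769-P and 91 to 215 in CAKI-1. Of the markers tested, EPAS1 (-3.20) and PAX8 (-0.64) were called lower and KRT8 (0.18) and PAX2 (0.29) higher with BCAA in 769-P, and EPAS1 (-0.71), VIM (-0.65), NDUFA4L2 (-1.12) and KRT18 (-0.27) were called lower in CAKI-1. The part of these marker changes in the results below was not tested. Leukocyte markers (PTPRC, CD3E, CD14) and endothelial markers (PECAM1, CDH5, VWF) were unlisted or had at most 15 reads in any library. The summed value of the fibroblast markers COL1A1, PDGFRB and DCN was 122045 to 146829 with BCAA and 99560 to 117302 without in CAKI-1, and 298 to 330 with BCAA and 248 to 264 without in 769-P. Of these, 1 of 2 tested was called higher with BCAA in 769-P and 2 of 3 in CAKI-1. Of all genes tested, 20.3% and 10.8% were called higher. PDGFRB rose by a log2 fold change of 1.88 in 769-P and 0.58 in CAKI-1 (limma adjusted p = 8.4e-05 and 0.0064). COL1A1 rose by 0.31 in CAKI-1 (limma adjusted p = 0.043, held in 3 of 12 alternatives). COL1A1 in 769-P (-0.41, limma adjusted p = 0.069) and DCN in CAKI-1 (-0.68, limma adjusted p = 0.20) lay lower with BCAA and were not called. In 769-P the PDGFRB call held in 1 of 4 fits with a library left out, and the part of the fibroblast markers in the results below was not tested. Since these are bulk samples, fewer cells making a transcript and less of it per cell cannot be told apart.

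Short stretches of the promoters of ODC1, SRM and SAT1 are shown because ODC1 and SAT1 had the larger falls in 769-P described next and SRM belongs to the same synthesis arm, and because letters known as binding sites of general or MYC-type factors lie in them. They were taken from RefSeq (GRCh38.p14), where 7 of the 10 genes were matched, with 10 windows of 300 bases in all (AZIN1, SMOX and PAOX were not matched). Capitals mark matches on either strand to CACGTG (the E-box bound by MYC and MAX), TATAA, or to CCAAT, which reads as ATTGG when it lies on the opposite strand.
ODC1, start-proximal, chr2:10448343-10448372, reverse strand: gacccgccggtgcTATAAgtagggagcggc
ODC1, internal start, chr2:10448013-10448112, reverse strand: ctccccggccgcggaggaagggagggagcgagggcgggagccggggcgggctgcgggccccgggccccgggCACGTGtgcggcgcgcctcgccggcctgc
SRM, chr1:11060079-11060228, reverse strand: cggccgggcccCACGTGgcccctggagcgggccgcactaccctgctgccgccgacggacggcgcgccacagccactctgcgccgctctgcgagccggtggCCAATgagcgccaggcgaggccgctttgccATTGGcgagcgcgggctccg
SAT1, chrX:23783073-23783172, forward strand: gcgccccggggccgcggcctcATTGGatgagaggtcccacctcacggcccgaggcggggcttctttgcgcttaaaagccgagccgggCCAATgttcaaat
Both ODC1 starts lie inside the annotated ODC1 gene, the start-proximal one at base 10448327 and the internal one further in, at base 10448012. The E-box letters occurred at positions -29 and 6 from the internal ODC1 start and at -199 in SRM, and in none of the other members' windows. Over all 35116 RefSeq windows of the same length, 7.256% held CACGTG, 34.61% held CCAAT and 20.44% held TATAA, on either strand. The SAT1 window held CCAAT letters at -79 and -13 and the SRM window at -110 and -80, while the start-proximal ODC1 window held TATAA at -32. These letters were not particular to the genes shown: CCAAT also lay in a window of AMD1 (-21), in SMS (-170) and in OAZ1 (-149 and -109), and TATAA in 2 windows of AMD1 (-29 and -28) and in OAZ1 (7). TGATGNAA, the composite site of ATF4 and C/EBP factors, was found in 3.617% of all windows and in none of the 10. TGACNNNGC, the core of the antioxidant response element, was in 13.35% of all windows and lay at -5 of the start-proximal ODC1 window. A match is only a match of letters.

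Comparing cells with and without BCAA within 769-P asked how the pathway's transcripts stood when these amino acids were present. The rate-limiting synthesis gene and both inducible catabolic genes fell together: ODC1 to 0.441, SAT1 to 0.454 and SMOX to 0.411 of their levels without BCAA. The antizymes OAZ1 and OAZ2, the spermine synthase SMS and, by less, AZIN1 rose, while AMD1, SRM and PAOX did not pass the test. Thus 4 of the 10 genes were higher and 3 lower, beside 20.3% of all 22391 genes tested that were called higher and 18.2% that were called lower (limma, Benjamini-Hochberg adjusted p under 0.05). The median log2 fold change over the 10 genes was -0.01, beside -0.02 over all genes tested, and the median size without its sign was 0.454 against 0.435. The libraries with and without BCAA did not overlap for 8 of the 10 genes, a separation that 67% of all genes tested also had.

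The same comparison in CAKI-1 gave smaller changes on a partly different set of genes. OAZ1 and OAZ2 rose and SAT1 and SMOX fell, as in 769-P, AMD1 and SRM rose, and ODC1, SMS, AZIN1 and PAOX did not pass the test. Again 4 of the 10 genes were higher, with 2 lower, beside 10.8% and 9.05% of all 21347 genes tested. The median log2 fold change was 0.04 against -0.01 over all genes, and the median size was 0.243 against 0.289. For 7 of the 10 genes the libraries did not overlap, as for 57.7% of all genes tested. With any 1 CAKI-1 library left out, limma called no gene at all out of 21347 (4084 to 5590 had an unadjusted p under 0.05, 2 to 5 of the 10 genes among them), so each CAKI-1 call below rests on all 4 libraries.

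Whether the BCAA effect differed between the lines was tested as an interaction over the 19406 genes tested in both. It differed for 6 of the 10 genes, beside 21.1% of all genes tested: the effect lay further down in 769-P for ODC1, AMD1, SAT1 and SMOX, and further up for SMS and OAZ2. Values of the 2 lines were scaled separately by the authors, so the interaction compares changes within each line, and any level set across lines carries that limit.

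**Figure D1:**
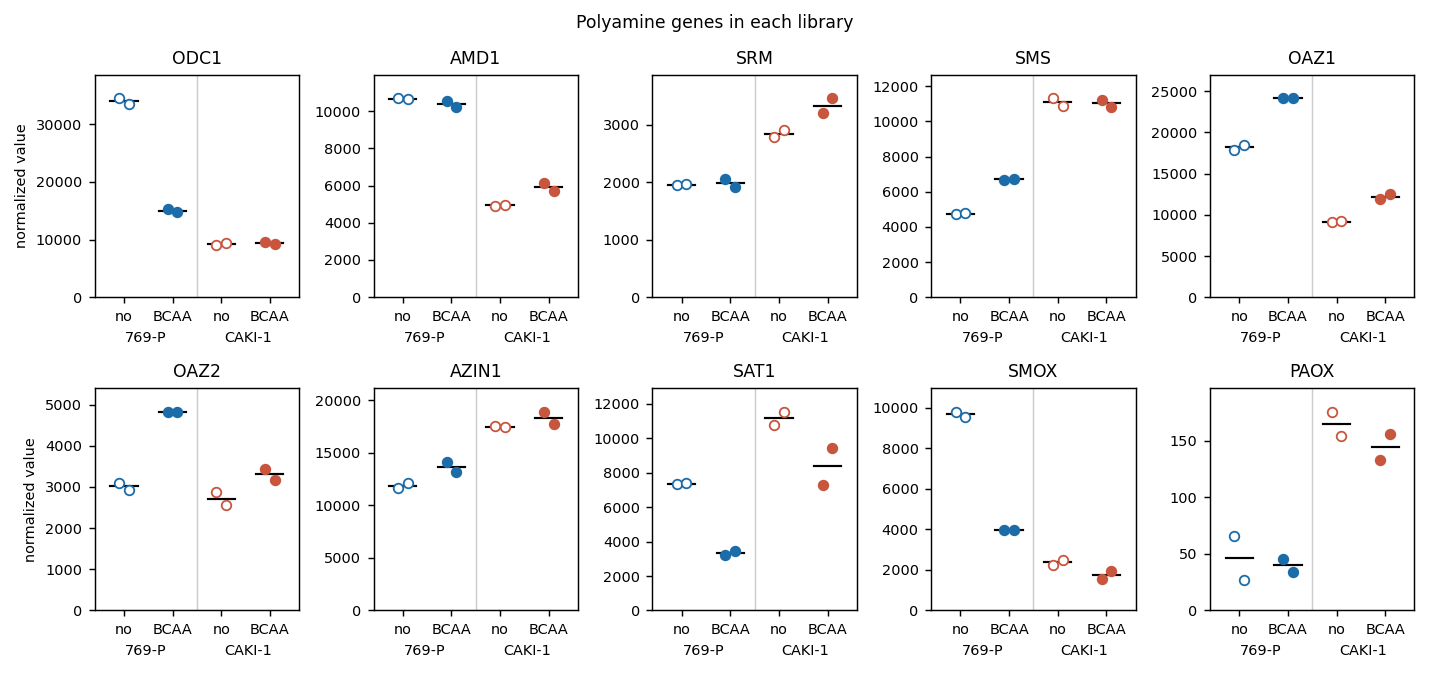
Normalized value (linear axis from 0) of each of the 10 polyamine genes in each of the 8 libraries, in 769-P (blue) and CAKI-1 (red) without BCAA (open points) and with BCAA (filled points); bars are means of 2 libraries. In 769-P the filled points of ODC1, SAT1 and SMOX lie far below the open ones, and those of SMS, OAZ1 and OAZ2 above them, whereas ODC1 and SMS overlap between conditions in CAKI-1.

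ODC1 (ENSG00000115758, chr2:10439968-10448504 on GRCh38, reverse strand) is the pathway's first and rate-limiting enzyme. Its normalized values in 769-P were 15250 and 14695 with BCAA and 34475 and 33448 without. Every library with BCAA lay below every library without, and the spread within a condition was small beside the gap. The log2 fold change was -1.18 (SE 0.04, 95% interval -1.27 to -1.09, limma adjusted p = 7.8e-10), and with all libraries thinned to 30979773 reads it was -1.19. In CAKI-1, ODC1 measured 9537 and 9147 with BCAA and 9077 and 9461 without. These values overlapped, and the interval of the log2 fold change (0.01, SE 0.06, adjusted p = 0.92) ran from -0.11 to 0.13, which leaves out a fall of the size seen in 769-P. The difference between the lines was -1.19 on the log2 scale (SE 0.07, limma adjusted p = 5.9e-08).

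AMD1 (ENSG00000123505, chr6:110874770-110895713, forward strand) supplies the aminopropyl donor. In 769-P it measured 10542 and 10233 with BCAA and 10693 and 10656 without. The libraries with BCAA were lower, but only slightly (log2 fold change -0.04, SE 0.04, adjusted p = 0.51). In CAKI-1 the values were 6132 and 5706 with BCAA and 4895 and 4974 without. Here the order was the opposite, a rise of 0.26 on the log2 scale (SE 0.06, limma adjusted p = 0.0096) that was lost with quantile normalization (adjusted p = 0.064). The effect of BCAA on AMD1 differed between the lines by -0.30 (SE 0.07, adjusted p = 0.0073). The 4 annotated AMD1 pseudogenes held 23 reads in all in 769-P and 8 in CAKI-1, against 43193 and 22176 reads on AMD1, so they took few of its reads.

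SRM (ENSG00000116649, chr1:11054584-11060024, reverse strand) makes spermidine, and SMS (ENSG00000102172, chrX:21940573-21994835, forward strand) makes spermine from it. SRM in 769-P was 2065 and 1922 with BCAA and 1946 and 1973 without, which overlap. In CAKI-1, SRM was 3201 and 3461 with BCAA and 2780 and 2916 without, all higher with BCAA. This rise of 0.23 (SE 0.07, limma adjusted p = 0.033) was not called with quantile normalization (adjusted p = 0.15), with edgeR after upper-quartile scaling (0.097) or without the filter on low values (0.053). The effects on SRM in the 2 lines differed by -0.20 (95% interval -0.39 to -0.01), which did not pass after adjustment (adjusted p = 0.14).

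SMS showed the reverse arrangement between the lines. In 769-P it was 6685 and 6749 with BCAA and 4716 and 4771 without, with no overlap. That was a rise of 0.50 on the log2 scale (SE 0.05, limma adjusted p = 2.7e-06), to 1.42 times the level without BCAA. In CAKI-1 the values were 11204 and 10841 with BCAA and 11306 and 10846 without, and they overlapped almost fully. The fitted change there was -0.01 (95% interval -0.13 to 0.11, adjusted p = 0.95), and the lines differed by 0.51 (SE 0.07, limma adjusted p = 1.1e-04).

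**Figure D2:**
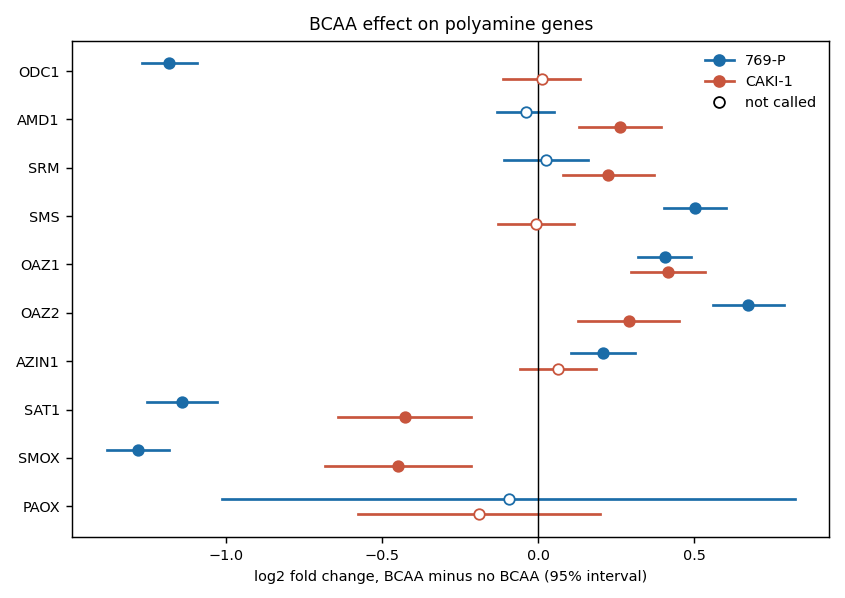
Fitted log2 fold change (BCAA minus no BCAA) with its 95% interval for each polyamine gene in 769-P (blue) and CAKI-1 (red); filled points passed the test at an adjusted p under 0.05 and open points did not. ODC1, SAT1 and SMOX lie below -1 in 769-P, the 2 lines coincide at OAZ1 (0.41 and 0.42), and the PAOX intervals are the widest.

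Among the regulators of ODC1, OAZ1 changed by nearly the same amount in both lines. OAZ1 (ENSG00000104904, chr19:2269509-2273490, forward strand), the more abundant antizyme here, was 24138 and 24129 with BCAA and 17914 and 18525 without in 769-P. In CAKI-1 it was 11972 and 12470 with BCAA and 9122 and 9204 without. All libraries with BCAA lay above those without in each line. The log2 fold change was 0.41 (SE 0.04, limma adjusted p = 4.7e-06) in 769-P and 0.42 (SE 0.05, limma adjusted p = 3.3e-04) in CAKI-1. The difference of the effects was -0.01 with a 95% interval from -0.14 to 0.13. In 769-P the call was narrowly lost without no BCAA replicate 1 (0.38, adjusted p = 0.054). Exons of JSRP1 and AC005258.1 overlap 456 bases of OAZ1 exons, and the strand setting of the counting was not given in the sources used here.

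OAZ2 (ENSG00000180304, chr15:64687573-64703281, reverse strand), the second antizyme gene, was 4829 and 4811 with BCAA and 3108 and 2935 without in 769-P. This was the larger rise of the antizymes, 0.67 (SE 0.05, limma adjusted p = 6.8e-07) or 1.60-fold, again with no overlap. In CAKI-1, OAZ2 was 3442 and 3177 with BCAA and 2867 and 2551 without. The libraries were ordered the same way, with a smaller fold change of 0.29 (SE 0.07, limma adjusted p = 0.017) that was not called with quantile normalization (adjusted p = 0.11) or after thinning to equal depth (0.067). The lines differed by 0.38 (SE 0.09, adjusted p = 0.0095), a call that was lost without 769-P no BCAA replicate 2 (adjusted p = 0.056) or without CAKI-1 no BCAA replicate 1 (adjusted p = 0.051). An antisense gene, AC100830.3, overlaps 554 bases of OAZ2 exons.

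AZIN1 (ENSG00000155096), which has lost ODC1's catalytic activity but binds antizyme, was 14186 and 13229 with BCAA and 11629 and 12104 without in 769-P. The rise was small, 0.21 (SE 0.05, limma adjusted p = 0.0036), and it did not pass with any 1 of the 4 libraries left out (0.16 to 0.26, adjusted p between 0.075 and 0.20). In CAKI-1, AZIN1 was 18931 and 17734 with BCAA and 17577 and 17454 without. The libraries with BCAA were the higher ones, by a fitted 0.07 whose interval included 0 (-0.06 to 0.19, adjusted p = 0.48). The lines differed by 0.14, with an interval from -0.01 to 0.30 (adjusted p = 0.19). The antisense gene AZIN1-AS1 shares 344 bases with AZIN1 exons.

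SAT1 (ENSG00000130066, chrX:23783173-23786226, forward strand) encodes the acetyltransferase that starts polyamine breakdown. Its values in 769-P were 3225 and 3465 with BCAA and 7363 and 7374 without. The libraries without BCAA were nearly identical and more than 2 times those with BCAA. The fall was 1.14 on the log2 scale, that is a fold change of 0.454 (SE 0.05, limma adjusted p = 7.1e-09). In CAKI-1, SAT1 was 7289 and 9430 with BCAA and 10777 and 11537 without. The groups did not overlap, yet the libraries with BCAA were far apart for this gene, with an SD of 1514 around a mean of 8359 (n = 2). The log2 fold change of -0.43 (SE 0.10, limma adjusted p = 0.0095) was -0.24 without CAKI-1 BCAA replicate 1 and -0.61 without CAKI-1 BCAA replicate 2. It was also not called with DESeq2 (adjusted p = 0.086), quantile normalization (0.083) or thinned reads (0.057). SAT1 fell further in 769-P than in CAKI-1 by 0.71 (SE 0.13, limma adjusted p = 0.0012).

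SMOX (ENSG00000088826, chr20:4120980-4187747, forward strand), the spermine oxidase, had the lowest fold change of the 10 genes in either line. In 769-P it was 3990 and 3950 with BCAA and 9798 and 9523 without. The gap was many times the spread within each condition (log2 fold change -1.28, SE 0.05, limma adjusted p = 9.8e-10). In CAKI-1, where the gene had fewer reads, it was 1528 and 1968 with BCAA and 2247 and 2493 without. Both libraries with BCAA were again lower, by a log2 fold change of -0.45 (SE 0.11, limma adjusted p = 0.012) that was -0.27 without CAKI-1 BCAA replicate 1 and -0.63 without CAKI-1 BCAA replicate 2. The CAKI-1 call was lost with quantile normalization (adjusted p = 0.080) and thinned reads (0.067). The difference between the lines was -0.83 (SE 0.13, limma adjusted p = 4.3e-04).

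PAOX (ENSG00000148832, chr10:133379234-133391694, forward strand), the peroxisomal oxidase of acetylated polyamines, was the least abundant of the 10. It had 22 to 60 reads per library in 769-P and 120 to 188 in CAKI-1. In 769-P it was 45.5 and 34.2 with BCAA and 65.8 and 26.9 without, and in CAKI-1 it was 133 and 156 with BCAA and 176 and 154 without. The conditions overlapped in both lines. The log2 fold changes were -0.09 (95% interval -1.01 to 0.82) and -0.19 (-0.58 to 0.20), so at this depth a change of PAOX in 769-P as large as the rise of OAZ2, in either direction, would not have been told from none. Exons of AL360181.3 on the same strand share 158 bases with PAOX.

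Levels of different genes were compared per kilobase of exon, as the normalized value divided by the length of all annotated exons of the gene. Without BCAA, 769-P cells had ODC1 at the top with 11443 ± 245 per kb (SD, n = 2), above OAZ1 at 5302 ± 126, SMOX at 3279 ± 66.0 and SAT1 at 2950 ± 3.09. With BCAA the top 2 changed places, OAZ1 at 7024 ± 1.78 and ODC1 at 5045 ± 132. SMS followed at 3110 ± 20.8, and SMOX (1348 ± 9.58) and SAT1 (1339 ± 67.8) lay below AZIN1 and AMD1 at the sixth and the seventh place, where they overlapped each other. No other neighbours in either 769-P order overlapped between libraries.

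CAKI-1 cells had SMS at the top in both conditions, at 5103 ± 119 per kb with BCAA and 5128 ± 151 without. Without BCAA, SAT1 came next (4466 ± 215), then ODC1 (3123 ± 91.4), AZIN1 (2726 ± 13.5) and OAZ1 (2667 ± 16.8), with no overlap between neighbours. With BCAA, OAZ1 (3557 ± 102), SAT1 (3346 ± 606) and ODC1 (3148 ± 92.9) followed SMS, and neither OAZ1 and SAT1 nor SAT1 and ODC1 were separated by their libraries. OAZ2 and PAOX held the last places in all 4 groups, PAOX at 17.5 to 72.5 per kb. The order depends on the length used: per kilobase of the longest transcript, SAT1, whose longest transcript (1135 bases) is short beside its 2498 bases of exon, stood first in both CAKI-1 groups, at rank 2 in 769-P without BCAA and at rank 4 in 769-P with BCAA, where it then lay above AZIN1 and AMD1.

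**Figure D3:**
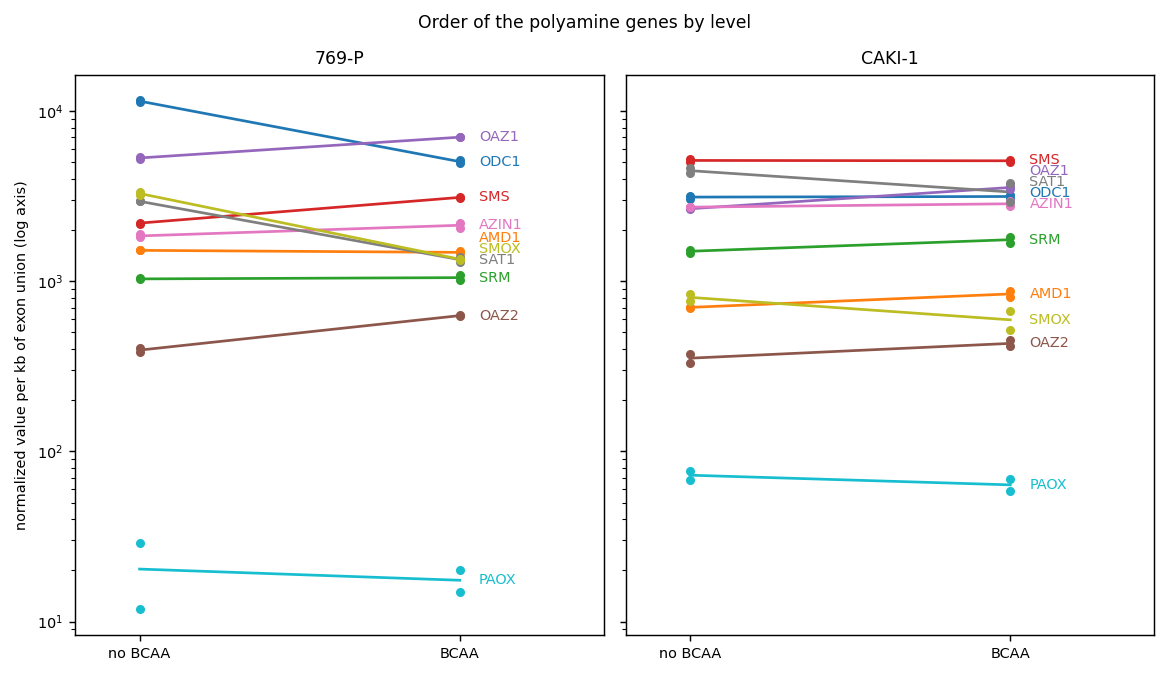
Normalized value per kb of annotated exon (log axis) of the 10 polyamine genes in 769-P and CAKI-1 without and with BCAA; points are libraries and lines join the means of 2 libraries. ODC1 and OAZ1 cross in 769-P, SMOX and SAT1 drop there from 3279 and 2950 to 1348 and 1339, and SMS stays at the top of CAKI-1.

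Ratios of a pair of genes within a library do not depend on the scaling of that library. The log2 ratio of ODC1 to OAZ1, enzyme to antizyme, was -0.66 and -0.72 with BCAA and 0.94 and 0.85 without in 769-P. In CAKI-1 it was -0.33 and -0.45 with BCAA and -0.01 and 0.04 without. It was thus lower with BCAA in all libraries of both lines, through ODC1 and OAZ1 in 769-P and through OAZ1 in CAKI-1, where ODC1 overlapped. With 2 libraries against 2, an exact permutation test cannot go below p = 0.333, and no test was made of the ratios.

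The ratio of AZIN1 to OAZ1 was also lower with BCAA in both lines, at -0.77 and -0.87 against -0.62 and -0.61 in 769-P and at 0.66 and 0.51 against 0.95 and 0.92 in CAKI-1. SAT1 to ODC1 overlapped in 769-P (-2.24 and -2.08 with BCAA, -2.23 and -2.18 without), as these transcripts fell by like amounts. In CAKI-1 the ratio of SAT1 to ODC1 was -0.39 and 0.04 with BCAA and 0.25 and 0.29 without, lower with BCAA. SMS to SRM moved in opposite directions, from 1.28 and 1.27 without BCAA to 1.70 and 1.81 with it in 769-P, and from 2.02 and 1.90 to 1.81 and 1.65 in CAKI-1. SMOX to SAT1 was slightly lower with BCAA in 769-P (0.31 and 0.19 against 0.41 and 0.37) and overlapped in CAKI-1 (-2.25 and -2.26 against -2.26 and -2.21). Between the lines this ratio differed widely.

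**Figure D4:**
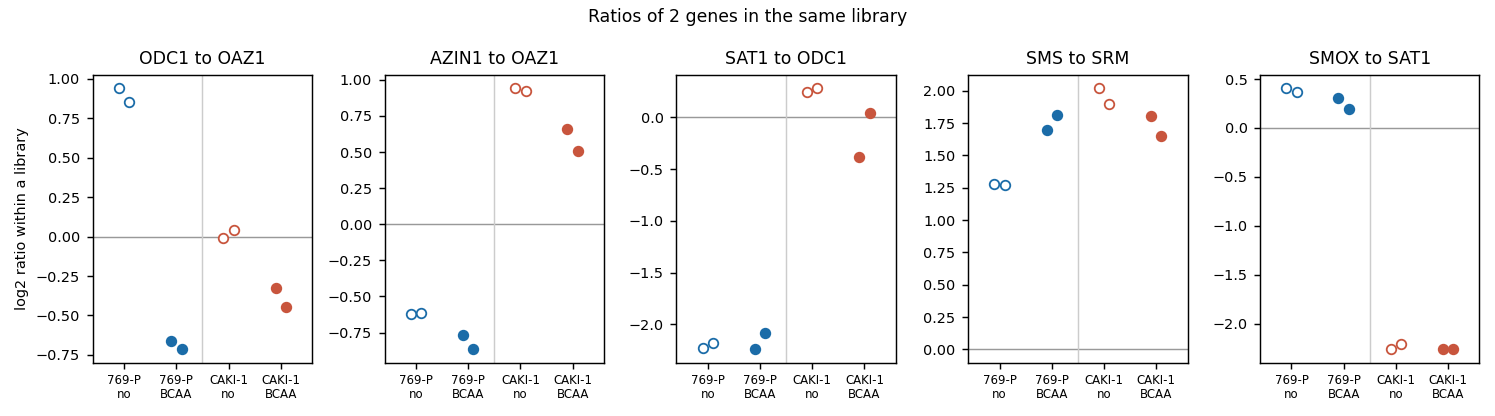
Log2 ratio of the normalized values of 2 genes within each library, in 769-P (blue) and CAKI-1 (red) without (open) and with BCAA (filled); each point is 1 library and each panel has its own axis. ODC1 to OAZ1 changes sign in 769-P, from 0.94 and 0.85 without BCAA to -0.66 and -0.72 with it.

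Genes around the pathway were counted from lists. Their median log2 fold changes in 769-P and CAKI-1, beside -0.02 and -0.01 over all genes tested, were -0.34 and 0.27 for the other polyamine enzymes and regulators, 0.06 and 0.33 for the hypusine pathway and 0.03 and 0.11 for the methionine cycle and salvage. For ornithine and arginine they were 0.02 and 0.12, for transport -0.16 and -0.04, and for transcription factors -0.34 and -0.11. In the first list, OAZ3 had 6 to 17 reads per library and AGMAT, tested in CAKI-1 alone, 0 to 3 there. Its CAKI-1 median lay between AZIN2 (0.17) and OAZ3 (0.37), neither of them called. The counts below stand beside 20.3% of all genes tested called higher and 18.2% lower in 769-P, and 10.8% and 9.05% in CAKI-1, and in lists this short a share near these is no result about the list. In 769-P, 20 genes of these lists were called, of which ASS1, SLC18B1, SLC3A2 and MYC kept their call in each of the 4 fits with a library left out. MAT2A kept it in 3 of these fits, OAT, ATP13A3 and NFE2L2 in 2 and APIP in 1, and the other 11 genes in none. None of the 10 calls in CAKI-1 was kept in any such fit, as for all genes there. Of the other polyamine enzymes and regulators (OAZ3, AZIN2, SAT2, SATL1 and AGMAT), 3 were tested in 769-P and 4 in CAKI-1, and SAT2, a relative of SAT1, was the 1 called lower in each (-0.32, adjusted p = 0.031 in 769-P and -0.42, adjusted p = 0.0063 in CAKI-1). The 769-P call of SAT2 held in 6 of 12 alternatives. By limma none of this list was called higher in either line, and none had an unadjusted p under 0.05 in that direction or was called by edgeR or DESeq2.

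Hypusine, made from spermidine by DHPS and DOHH on the translation factor eIF5A, is a main use of spermidine. EIF5A was 34004 and 33245 with BCAA and 30368 and 30353 without in 769-P, and 25110 and 25973 against 18739 and 19152 in CAKI-1. It rose in both, by 0.15 (SE 0.04, limma adjusted p = 0.0074) and 0.43 (SE 0.05, limma adjusted p = 2.4e-04), and the lines differed (-0.28, adjusted p = 0.0044). EIF5AL1 is a near-identical copy of EIF5A, so its own rises (0.19 and 0.42) are uncertain, as is the split of reads between these genes. DHPS fell in both lines (-0.20 and -0.37, limma adjusted p = 0.027 and 0.0073), the first not being called with median centering or without the filter. Exon overlaps of DHPS with WDR83 and AC010422.8 summed to 1273 bases, beside 3006 bases of DHPS exon. DOHH rose in CAKI-1 (0.33, adjusted p = 0.028), a call that quantile normalization and upper-quartile scaling ended, and EIF5A2 was not called. In all, with EIF5AL1 counted, 2 of 5 genes were higher and 1 lower in 769-P, and 3 higher and 1 lower in CAKI-1.

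The methionine cycle provides S-adenosylmethionine, and the salvage route returns the methylthioadenosine that polyamine synthesis releases. MAT2A, which makes S-adenosylmethionine, was 13420 and 13366 with BCAA and 17527 and 17748 without in 769-P, a fall (-0.40, SE 0.04, limma adjusted p = 5.7e-06). In CAKI-1 MAT2A was 7703 and 6734 with BCAA and 8268 and 9088 without (-0.27, adjusted p = 0.025), a call lost in 4 of 12 alternatives. The salvage enzyme APIP rose in 769-P from 896 and 923 to 1235 and 1355 (0.51, SE 0.07, limma adjusted p = 1.7e-04). MRI1 (0.46), ADI1 (0.31) and the MAT2A partner MAT2B (0.13) were the other 3 called higher there, of 10 genes, with MAT2A alone lower. Quantile normalization ended the calls of these 3, and edgeR with upper-quartile scaling those of ADI1 and MAT2B. The ADI1 call was also lost with DESeq2 and with thinned reads, and the MAT2B call without the filter on low values. Exon overlaps of MRI1 with AC008686.1 and C19orf53 summed to 1193 bases, beside 3456 bases of MRI1 exon. MTAP and ENOPH1, which act in the same salvage route, were not called in either line. The lines differed for MAT2B (0.23, limma adjusted p = 0.031), APIP (0.33, 0.048) and MTAP (-0.24, 0.048), beside 21.1% of all genes tested. These calls held in 8, 5 and 6 of 11 alternatives, and the other 7 genes were not called. In CAKI-1 none of the 10 was called higher by limma, edgeR or DESeq2 (2 had an unadjusted p under 0.05) and 2 were lower, MAT2A and AHCY (-0.20, adjusted p = 0.033, held in 7 of 12 alternatives).

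Ornithine is drawn from arginine by arginases and exchanged with glutamate and proline through OAT and ALDH18A1. OAT was higher with BCAA in both lines, at 2623 and 2446 against 1785 and 1719 in 769-P and 5125 and 4963 against 4170 and 3709 in CAKI-1. The rises were 0.53 (SE 0.06, limma adjusted p = 2.2e-05) and 0.36 (SE 0.07, limma adjusted p = 0.0033), the latter not called with quantile normalization. ALDH18A1, which makes the precursor of ornithine and proline, rose by 0.27 in 769-P (adjusted p = 0.0010) and by 0.18 in CAKI-1 (adjusted p = 0.043, held in 6 of 12 alternatives). ASS1, which makes the precursor of arginine, was 1268 and 1230 with BCAA and 2641 and 2651 without in 769-P, a fall to 0.472 (-1.08, SE 0.06, limma adjusted p = 3.9e-08). In CAKI-1, ASS1 had only 37 to 78 reads and was not called. ARG2 (-0.98, adjusted p = 0.034, on 31 to 43 reads, not called with DESeq2) was the other gene called lower in 769-P, so that 2 of 7 were higher and 2 lower there. Exons of VTI1B on the opposite strand overlap 904 bases of ARG2 exons, beside 2418 bases of ARG2 exon, so the source of these few reads is uncertain. In CAKI-1, 2 of 6 were higher, and none was called lower by limma, edgeR or DESeq2 (1 had an unadjusted p under 0.05). No difference between the lines was called in this list by limma, edgeR or DESeq2, though 1 gene had an unadjusted p under 0.05.

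Of 7 polyamine transport genes, 4 were called in 769-P. SLC3A2, the heavy chain of amino acid exchangers that has also been linked to polyamine transport, was 6346 and 6018 with BCAA and 24145 and 24137 without. That was a fold change of 0.256 (log2 -1.97, SE 0.04, limma adjusted p = 4.6e-11), with the largest gap among the genes of these lists. In CAKI-1, SLC3A2 was 10630 and 11152 with BCAA and 11103 and 11279 without, overlapping (log2 -0.04, 95% interval -0.16 to 0.08), and the lines differed by -1.93 (SE 0.07, limma adjusted p = 8.6e-10). ATP13A3, a polyamine pump of the P-type ATPases, fell in 769-P from 19651 and 20426 to 14220 and 13443 (-0.54, SE 0.04, limma adjusted p = 1.2e-06), and further than in CAKI-1 (difference -0.40, limma adjusted p = 9.6e-04). SLC18B1, a vesicular polyamine transporter, rose there from 519 and 511 to 790 and 806 (0.63, SE 0.08, limma adjusted p = 8.2e-05). SLC47A1 rose too (1.44, SE 0.28, adjusted p = 0.0015, from 24 and 30 reads to 130 and 99), although not with the spread taken from all 8 libraries. Thus 2 of 7 were higher and 2 lower in 769-P, with ATP13A2, SLC12A8 and SLC22A3 not called, and in CAKI-1 none was called by limma, edgeR or DESeq2, with 2 at an unadjusted p under 0.05.

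Of 3 transcription factors known to act on members of the pathway, all were lower with BCAA in 769-P, beside 18.2% of all genes tested. MYC, a known activator of ODC1 through its E-boxes, was 8188 and 7749 with BCAA and 13063 and 13648 without (-0.75, SE 0.05, limma adjusted p = 1.1e-07). MAX, the partner of MYC (-0.34), and NFE2L2, the factor of the antioxidant response element (-0.33), were lower as well. Their limma adjusted p were 0.0015 and 7.4e-05. Exon overlaps of NFE2L2 with AC079305.1, AC019080.1 and AGPS summed to 1298 bases, beside 5979 bases of NFE2L2 exon. In CAKI-1, MYC was 10640 and 11142 with BCAA and 12834 and 13424 without, a smaller fall (-0.27, SE 0.06, limma adjusted p = 0.0056), and it was the 1 factor of the 3 called there. The lines differed for MYC (-0.48, adjusted p = 3.2e-04) and NFE2L2 (-0.26, adjusted p = 0.017). These are RNA levels, and what they have to do with ODC1 in these cells was not tested.

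**Figure D5:**
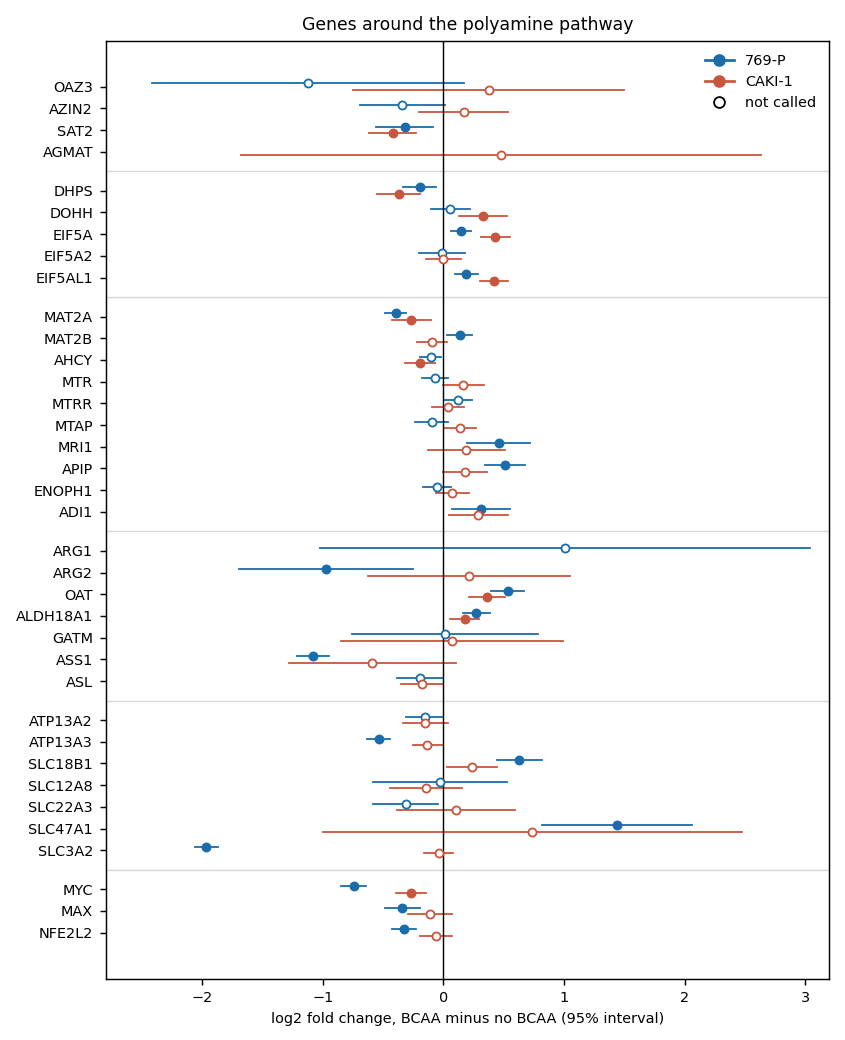
Fitted log2 fold change (BCAA minus no BCAA) with its 95% interval for genes around the polyamine pathway in 769-P (blue) and CAKI-1 (red); filled points passed the test, open points did not, and grey lines divide the lists (from the top: other polyamine enzymes and regulators, hypusine, methionine cycle and salvage, ornithine and arginine, transport, transcription factors). SLC3A2 stands at -1.97 in 769-P and at -0.04 in CAKI-1. The points of all 3 transcription factors lie below 0 in both lines, but in CAKI-1 the intervals of MAX and NFE2L2 include 0.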

How the data were processed

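Total RNA was sequenced in 8 libraries. For each cell line the authors deposited a table of a signal for every Ensembl gene, namely its read count after division by the library's size factor. The submitters' processing notes name Trim Galore, TopHat2 2.1.0, SAMtools 1.3.1, HTSeq 0.6.0, DESeq, DESeq2 and the build hg38, and the strand setting is not given in the sources used here. All values (100%, within 0.01) were whole multiples of 1 read, so reads were recovered for edgeR 4.0.16 and DESeq2 1.42.0, which were alternatives only. Genes were placed with GENCODE 29.

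Here limma 3.58.1 (R 4.3.3, eBayes with trend) was fitted to log2(value + 1) over all genes whose values averaged 1 or more in a line's 4 libraries (22391 and 21347 genes), with Benjamini-Hochberg adjustment and calls at 0.05. The added 1 shrinks fold changes of genes with few reads. The interaction used the 19406 genes of both tables. All 10 members are named, and in the other lists the called genes, except that 1 gene of the lists is not reported here. The members and lists were chosen with earlier results of these data known. Intervals and low read counts of single genes cover the spread between libraries and counting error. Whether they also cover differences between cultures is not known.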

Additional observations from a re-analysis of the deposited data

Results flagged for a closer look

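For 6 of the 10 polyamine genes the test of the difference between the cell lines was passed (limma interaction term, 769-P minus CAKI-1, Benjamini-Hochberg over 19406 genes), so the effect of BCAA was not the same in both. ODC1 differed by -1.19 on the log2 scale, SMOX by -0.83, SAT1 by -0.71 and AMD1 by -0.30, each further down in 769-P. SMS differed by 0.51 and OAZ2 by 0.38, both further up in 769-P. Of these, SAT1, SMOX and OAZ2 moved in the same direction in both lines and differed in size, whereas ODC1 and SMS were called in 769-P and overlapped between conditions in CAKI-1, and AMD1 was called in CAKI-1 and not in 769-P. The lines were kept in different media, whose part in these differences was not tested. They were also sequenced to different depths, and with all libraries thinned to 30979773 reads the same 6 genes were called.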

How the results depend on the processing

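In 769-P, all 120 values of the 10 genes under the 12 alternatives other than left-out libraries (pseudocounts of 0.1 and 5, filters, scalings, the replicate block, edgeR, DESeq2, thinned reads and the spread from all 8 libraries) kept their side of the threshold. With a library left out, where the lone library is assumed to vary like the other group, 5 of 40 did not (AZIN1 in each fit and OAZ1 in 1), so the number of genes higher ranged from 2 to 3. In CAKI-1, 11 of 120 lost their call: quantile normalization left 1 gene higher and 0 lower, DESeq2 left 1 lower and thinned reads left 0 lower. Any left-out CAKI-1 library left 0 higher and 0 lower, since limma then called none of 21347 genes (2 to 5 of the 10 had an unadjusted p under 0.05). For the difference between the lines, all 110 held, and the number further up in 769-P ranged from 1 to 2 with a library left out. No called value of the 10 genes or of the lists reversed. Over all genes in CAKI-1, edgeR with upper-quartile scaling gave 1788 higher and 2595 lower, against 2312 and 1931 as reported. Median centering moved the median of all genes by 0.04 in each line.

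The labels give the same replicate numbers in both conditions, without saying what same-numbered libraries share. Deviations of same-numbered libraries correlated at -0.09 (769-P) and 0.06 (CAKI-1) over genes. With 2 libraries per condition, this cannot tell whether a culture or a preparation was shared. With the replicate block, 4 genes were higher and 3 lower in 769-P and 4 higher and 2 lower in CAKI-1. With 2 libraries per condition, changes of PAOX smaller than its wide intervals could not be seen.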
